A study of Homo sapiens with 3 samples.

Results

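Two-color expression arrays were used to ask how gene expression differed between U87WT and U87Mut, a pair of U87 glioma clones, after IGF1 in the presence of the receptor inhibitor OSI906. U87WT (U87WT 5) is 1 stably transfected clone that carries wild-type IGF1R fused to GFP, and U87Mut (U87Mut 5) is 1 stably transfected clone that carries GFP-IGF1R1025x-1100x-1120x, in which 3 lysines are replaced so that the receptor does not reach the nucleus. Both clones were kept without serum and given IGF1 (50 nM) with OSI906 (0.5 µM) for 24 h, after a preincubation with the inhibitor, and their RNA was hybridized together to 1 array, U87WT in Cy5 and U87Mut in Cy3. The title of the sample gives the dose of 0.5 µM, whereas another of its labels gives 500 µM, and the dose of the title is used here. The labels give 24 h, whereas another source of the study gives a shorter treatment, and the time of the labels is used here. The array is 1 of 3 in the study, and the others compared the same clones with the same dyes in FBS-free medium or after IGF1 (50 nM) alone. Members of the comparison were the non-control probes that the scanner software marked as well above background in both channels, which were 30488 of 58198 probes. Of these, 22072 could be named and gave 16386 genes, of 25004 named genes with a probe.

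IGF1R is a receptor tyrosine kinase that signals through AKT and ERK to growth, metabolism and cell division, and it can also be conjugated to SUMO on lysines of its kinase domain and enter the nucleus. OSI906 (linsitinib) is a small molecule that blocks the kinase of IGF1R and of the insulin receptor. The array of IGF1 with OSI906 therefore gives the difference between the clones with ligand and inhibitor present. The paper reports that the inhibitor also kept the wild-type receptor of U87WT from moving to the nucleus after IGF1. Neither the activity of the kinase nor the place of the receptor was measured on this array. Every value below is the log2 ratio of U87WT over U87Mut unless another unit is named, so that a value above 0 means a higher level in U87WT.

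Without a replicate or a dye swap no test could be made, and a probe or gene was called higher in U87WT above 0.5 and lower below -0.5. A gene-specific bias of the dyes and a difference between the clones cannot be told apart. The same holds for a difference between these single clones and a difference between wild-type and mutant receptor. The spread that could be measured was technical: 281 probes printed as 6 to 10 spots had a pooled SD of 0.06 between spots, which ranged from 0.04 in the brightest to 0.09 in the dimmest. Different probes of the same gene spread more, with a pooled SD of 0.22 over 4414 genes. Among genes with several probes it was 0.40 in the 310 called higher and 0.33 in the 245 called lower. In RNA of whole cultures, fewer cells of a kind and less RNA per cell cannot be told apart.

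The array was even. Its highest local background in Cy5 was 45, against 373 in FBS-free medium and 66985 in a bright patch of the IGF1 array, and 5 of its 62976 spots were marked as not uniform, against 384 and 572. The spots saturated numbered 0. The added RNA controls gave an observed against expected slope of 0.87 with a correlation of 0.986, per the file header, where a slope of 1 would mean ratios that are not compressed.

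Of the 30488 probes, 1294 (4.24%) were higher and 1162 (3.81%) lower in U87WT. Centered on the median of the array in place of loess, the split was 1969 higher and 841 lower. Counted by genes, each by its brightest probe, 896 (5.47%) were higher and 867 (5.29%) lower, and 136 and 81 genes differed by over 1. The median gene was at -0.01, and the quartiles of all genes lay between -0.17 and 0.15. Where several probes of a called gene were well above background, 240 of 310 higher and 199 of 245 lower genes had all their probes on the same side of 0. All probes passed 0.5 in 57 and 71 of these genes. One trend with brightness was left after loess: the 136 genes brighter than 15 on the log2 scale had a median of 0.40, whereas the medians of the dimmer classes lay between -0.03 and 0.06.

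**Figure D1:**
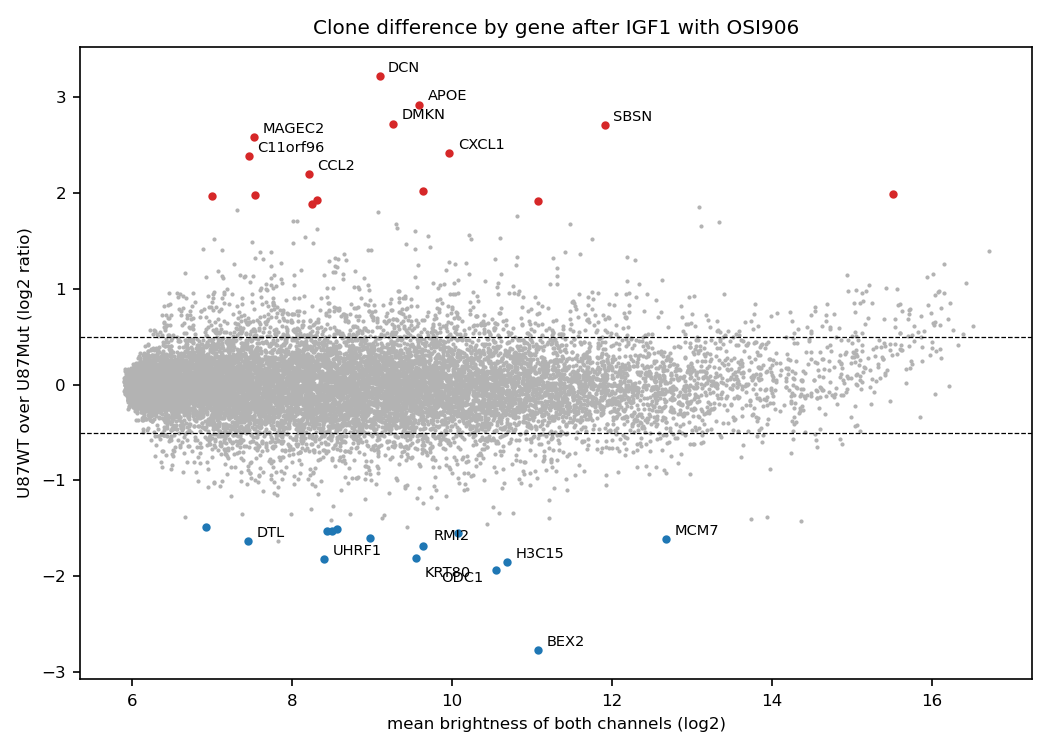
Log2 ratio of U87WT over U87Mut (vertical axis) against the mean log2 brightness of both channels (horizontal axis) for the 16386 genes of the array of IGF1 with OSI906. Each point is 1 gene by its brightest probe, the dashed lines stand at 0.5 and -0.5, and colored points are the 15 highest genes, led by DCN at 3.22, and the lowest genes, led by BEX2 at -2.77.

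DNA replication genes were lower in U87WT. Before a cell divides, the MCM complex is loaded on origins by the origin recognition complex and CDT1, and CDC45 and the GINS complex turn it into the working helicase. Of 35 listed genes 34 were measured, 29 were below -0.5 and 0 above 0.5, with a median of -0.95, beside 5.29% of all genes below -0.5 and a median of -0.01. The part they share most is the helicase: 11 of its 11 measured genes were below -0.5, with a median of -1.24. MCM7, a subunit of the helicase, gave a brightness over background of 4056 in U87WT and 10368 in U87Mut, a log2 ratio of -1.61, and its other probe gave -1.20. CDC45 gave 241 and 803 (-1.60), and MCM2 gave 600 and 1732 (-1.55). GINS2 was at -1.53. Thus the fold between the clones was 3.05 for MCM7, 3.04 for CDC45 and 2.92 for MCM2. Of the licensing factors 4 of 5 were below -0.5, with CDT1 at -1.48 and ORC6 at -1.35. Its inhibitor geminin (GMNN) was lower too, at -1.05. The sliding clamp PCNA (-1.04), the clamp loader subunit RFC4 (-1.10) and the primase PRIM1 (-1.03) were among 10 of 12 polymerase and fork genes below -0.5. Among 6 enzymes of nucleotide supply the count was 4, with thymidylate synthase (TYMS) at -0.90 and thymidine kinase (TK1) at -0.89.

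The difference in these genes was of similar size on the other arrays. Without serum or additions their median was -1.01, and after IGF1 it was -0.96, and 31 and 30 of the 34 genes were below -0.5 there. MCM7 was at -2.02 in FBS-free medium and -1.62 after IGF1, and CDC45 at -1.97 and -1.82. So the replication genes were lower in U87WT in each condition, with or without IGF1 and the inhibitor.

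E2F factors control many replication genes, ATF4 controls genes of amino acid supply and stress, and NF-kB controls many cytokines. The 250 bases before a start of the gene (RefSeq, GRCh38.p14) were searched on both strands for TTTCGCGC, TTTGGCGC, TTTCCCGC and TTTGGCGG (E2F), TGATGNAA (ATF4) and the NF-kB consensus. The sequences show, for each of these groups of genes, the pair of called genes farthest from 0 that hold a match with the matched letters in capitals and each read 5′ to 3′ on the strand of its gene.
MCM7, chr7:100101398-100101647, minus strand: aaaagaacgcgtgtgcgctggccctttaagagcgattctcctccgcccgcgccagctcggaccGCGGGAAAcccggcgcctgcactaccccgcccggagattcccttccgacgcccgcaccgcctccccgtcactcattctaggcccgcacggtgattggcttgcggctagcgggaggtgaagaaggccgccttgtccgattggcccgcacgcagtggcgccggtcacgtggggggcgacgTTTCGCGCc
CDC45, chr22:19479670-19479919, plus strand: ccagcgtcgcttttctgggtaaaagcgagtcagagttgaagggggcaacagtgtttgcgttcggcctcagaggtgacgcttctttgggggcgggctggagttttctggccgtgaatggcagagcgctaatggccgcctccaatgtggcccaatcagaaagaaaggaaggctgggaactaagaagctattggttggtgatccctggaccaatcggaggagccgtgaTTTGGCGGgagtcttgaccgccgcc
ATF3, chr1:212565157-212565406, plus strand: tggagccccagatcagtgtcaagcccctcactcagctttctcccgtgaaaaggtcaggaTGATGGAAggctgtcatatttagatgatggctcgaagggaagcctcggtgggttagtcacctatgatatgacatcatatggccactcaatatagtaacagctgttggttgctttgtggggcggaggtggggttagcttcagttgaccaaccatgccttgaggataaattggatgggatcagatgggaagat
CHAC1, chr15:40953221-40953470, plus strand: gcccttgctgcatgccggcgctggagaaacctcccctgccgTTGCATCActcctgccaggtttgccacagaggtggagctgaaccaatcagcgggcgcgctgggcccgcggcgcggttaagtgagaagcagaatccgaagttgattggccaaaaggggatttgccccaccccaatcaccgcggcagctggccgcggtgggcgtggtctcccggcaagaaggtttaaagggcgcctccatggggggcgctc
CXCL1, chr4:73869143-73869392, plus strand: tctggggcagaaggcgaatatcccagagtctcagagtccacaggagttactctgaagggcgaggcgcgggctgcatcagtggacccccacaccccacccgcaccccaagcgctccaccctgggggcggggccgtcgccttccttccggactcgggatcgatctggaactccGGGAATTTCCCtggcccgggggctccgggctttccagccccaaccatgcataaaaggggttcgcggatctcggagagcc
NFKBIA, chr14:35404750-35404999, minus strand: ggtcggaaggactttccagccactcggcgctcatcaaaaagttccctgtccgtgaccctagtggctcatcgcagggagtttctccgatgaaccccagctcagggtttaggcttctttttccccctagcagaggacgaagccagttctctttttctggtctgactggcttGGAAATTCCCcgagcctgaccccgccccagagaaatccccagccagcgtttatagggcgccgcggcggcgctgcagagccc
The matches of MCM7 begin 187 and 9 bases before the start, and that of CDC45 25 bases before the start used. For CDC45 that start lies inside the gene, whose first base is at chr22:19479466. In CXCL1 a pair of NF-kB matches overlap, 79 and 78 bases before the start, one on each strand, and the match of NFKBIA begins at 81. The E2F letters were in 2.91% of all 27305 promoters, in 4.22% of the 12603 promoters of measured genes, in 9.06% of 684 promoters of genes below -0.5 and in 12 of 30 replication promoters. The NF-kB letters were in 5.05% of all promoters, in 5.79% of those of measured genes, in 7.59% of 672 promoters of genes above 0.5 and in 9 of 19 promoters of the cytokine list. The ATF4 letters were in 3.19% of all promoters, in 1.85% of those of measured genes, in 2.34% of those of genes below -0.5 and in 3 of 23 promoters of ATF4 targets. A match is a description of the letters, and binding was not measured.

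Mitosis and repair genes lay on the same side. Of 35 mitosis genes 18 were below -0.5 and 0 above 0.5, with a median of -0.54, which was -0.39 when centered on the median in place of loess. BUB1B, a kinase of the spindle checkpoint, was at -1.35, the kinesin KIF23 at -1.07, the mitotic kinase CDK1 at -0.92 and cyclin CCNB2 at -0.90. Among 18 genes of homologous recombination and the Fanconi pathway 11 were below -0.5 and 0 above 0.5 (median -0.66). Of all genes 5.29% were below -0.5 and 5.47% above 0.5. Cyclin D1 (CCND1), which carries growth signals into the cell cycle, was at -1.17, and at -1.39 and -1.18 on the arrays of FBS-free medium and IGF1. UHRF1, which keeps DNA methylation through replication, was at -1.82, although its other probe gave -0.64, and DTL, which targets CDT1 for destruction, was at -1.63. So replication, mitosis and recombination genes were lower together in U87WT, while of 23 listed p53 targets 4 were lower, 2 higher and the median was -0.04.

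Histone genes that are expressed in S phase lie in clusters, and these stood out along the genome. Among windows of 20 neighboring measured genes, the window with the most genes below -0.5 ran from H4C9 to H3C12 on chromosome 6 (chr6:27139282-27890826), with 13 of 20 genes below -0.5 and a median of -0.68. Next came the window from HFE to H3C8 (chr6:26087429-26271413), with 11. The median window held 1 such gene. Of 53 measured histone genes of chromosome 6, 30 were below -0.5 and 2 above 0.5, and on chromosome 1 the counts were 3 and 1 of 9. The H2B genes were largely not part of this. On chromosome 6 only H2BC7, at -0.61, was below -0.5 among them, and the others ran from H2BC3 at -0.32 to H2BC12 at 0.74. H3C15 on chromosome 1 was the lowest, at -1.85, and had -1.66 without serum and -2.27 after IGF1. Histone genes are near-identical copies, so that probes may share their RNA, and the genes of a cluster are not independent. On the higher side 7 of 20 genes passed 0.5 in a window of chromosome 1 from EIF2D to HHAT that includes IL24. By chromosome the share of genes above 0.5 was highest on chromosome 21, at 10.9% of 193 genes, and the share below -0.5 was highest on chromosome 6, at 8.22% of 852. Of the 70 genes of chromosome 6 below -0.5, 30 were its histone genes.

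**Figure D2:**
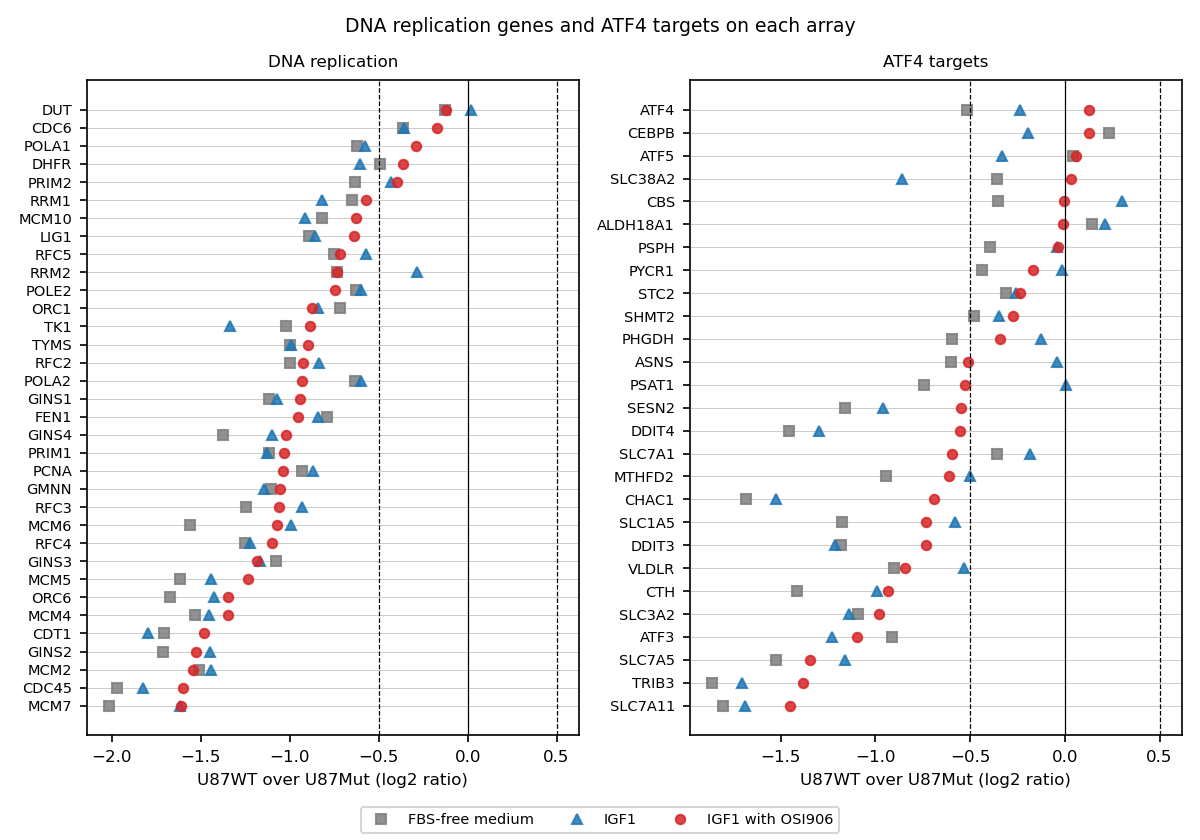
Log2 ratio of U87WT over U87Mut (horizontal axis) for the 34 measured DNA replication genes and the 27 ATF4 targets, with 1 point per array: FBS-free medium (squares), IGF1 (triangles) and IGF1 with OSI906 (circles). Dashed lines stand at 0.5 and -0.5. The replication genes lie below 0 after IGF1 with OSI906, with a median of -0.95, and the ATF4 targets run from SLC7A11 at -1.45 to values near 0.

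Genes of amino acid supply were lower in U87WT. ATF4 is translated when amino acids are short or the endoplasmic reticulum is stressed, and it induces transporters and enzymes that restore the supply. Of 27 targets 16 were below -0.5 and 0 above 0.5, with a median of -0.55, which was -0.30 when centered on the median in place of loess. Of all genes 5.29% were below -0.5. Transporters were the clearest group, with 5 of 6 below -0.5: SLC7A11, which imports cystine, was at -1.45, SLC7A5, which imports large neutral amino acids, at -1.34, and their shared partner SLC3A2 at -0.98. TRIB3, a pseudokinase that restrains ATF4 signaling, was at -1.38. Among 10 genes of amino acid synthesis 4 passed, of which CTH, in the route from methionine to cysteine, was lowest at -0.93. ATF3, whose promoter is shown above, was at -1.10 by its brightest probe, but its other probes reached up to 0.06. ATF4 itself was at 0.13.

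Several stress genes of this list were closer between the clones with OSI906 than on the other arrays. CHAC1, which degrades glutathione, was at -0.69 with OSI906, at -1.68 in FBS-free medium and at -1.52 after IGF1. DDIT4, an inhibitor of mTORC1, was at -0.55, -1.46 and -1.29 in the same order, and SESN2, a sensor of leucine, at -0.55, -1.16 and -0.96. In FBS-free medium the list had a median of -0.74, and after IGF1 of -0.50. Aminoacyl-tRNA synthetases, which charge tRNA and in part respond to ATF4, were lower in 7 and higher in 1 of 20 (median -0.39), with GARS1 at -1.03 and QARS1 at 0.56. Over all genes 5.29% were lower and 5.47% higher. ODC1, the first enzyme of polyamine synthesis, was the second lowest gene of the array, at -1.93, with a brightness over background of 747 in U87WT and 2753 in U87Mut. It was at -1.29 in FBS-free medium and -1.60 after IGF1.

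Cytokines and NF-kB targets were higher in U87WT. NF-kB is held in the cytoplasm by inhibitors such as the product of NFKBIA, which it induces in turn, and it drives chemokines, interleukins and adhesion molecules. Of 31 listed genes 24 were measured, 16 were above 0.5 and 0 below -0.5, with a median of 0.64, beside 5.47% of all genes above 0.5. For the other 7, no probe passed in both channels. Among chemokines, CXCL1, which attracts neutrophils, gave a brightness over background of 2330 in U87WT and 369 in U87Mut (2.41), and its other probe gave 1.38. CCL2, which attracts monocytes, gave 594 and 83.4 (2.19), and IL24, a cytokine of the interleukin-10 family, gave 323 and 38.5 (1.97), with 0.54 by its other probe. ICAM1, an adhesion molecule for leukocytes, was at 1.96, NFKBIA at 1.30 and TNFAIP3, another brake on NF-kB, at 1.26. So the targets and the inhibitors of the pathway were on the same side.

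Part of this group was above 0.5 on this array and not on the others. The median of the list stood at 0.03 in FBS-free medium and at 0.19 after IGF1, and 8 and 10 of the 24 genes were above 0.5 there. The 24 genes were kept for passing the background on this array, and some did not pass on the others. Where a gene is dim, the offset pulls its ratio toward 0, and the part of this choice in the gap was not tested. Limited to genes well above background on every array, the median here was 0.60. CSF3, the growth factor of granulocytes, had log2 ratios of 1.55 after IGF1 with OSI906, -0.44 in FBS-free medium and 0.15 after IGF1, the largest gap to the mean of the other arrays among 15335 genes measured on every array (1.70), and its other probe was at 0.81 on this array. Its brightness over background in U87WT was 1411 with OSI906, 185 in FBS-free medium and 249 after IGF1, and in U87Mut it was 421, 289 and 154, on a scale that is not normalized between arrays. IL1B had ratios of 1.38, 0.04 and 0.84, and so passed 0.5 after IGF1 alone as well. CXCL8 had 0.81, -0.03 and 0.05, PTGS2 0.68, -0.05 and -0.06, IL6 0.60, -0.19 and -0.47, and CXCL2 0.51, -0.11 and -0.89. These genes were brighter with OSI906 in both clones, and more so in U87WT: IL1B gave 4645 in U87WT and 1546 in U87Mut, against 671 and 689 in FBS-free medium. By contrast ICAM1 (1.55 and 1.60 on the other arrays), NFKBIA (1.09 and 1.11) and TNFAIP3 (1.18 and 0.93) had similar ratios throughout. The difference between arrays was not tested, since each condition has 1 array.

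**Figure D3:**
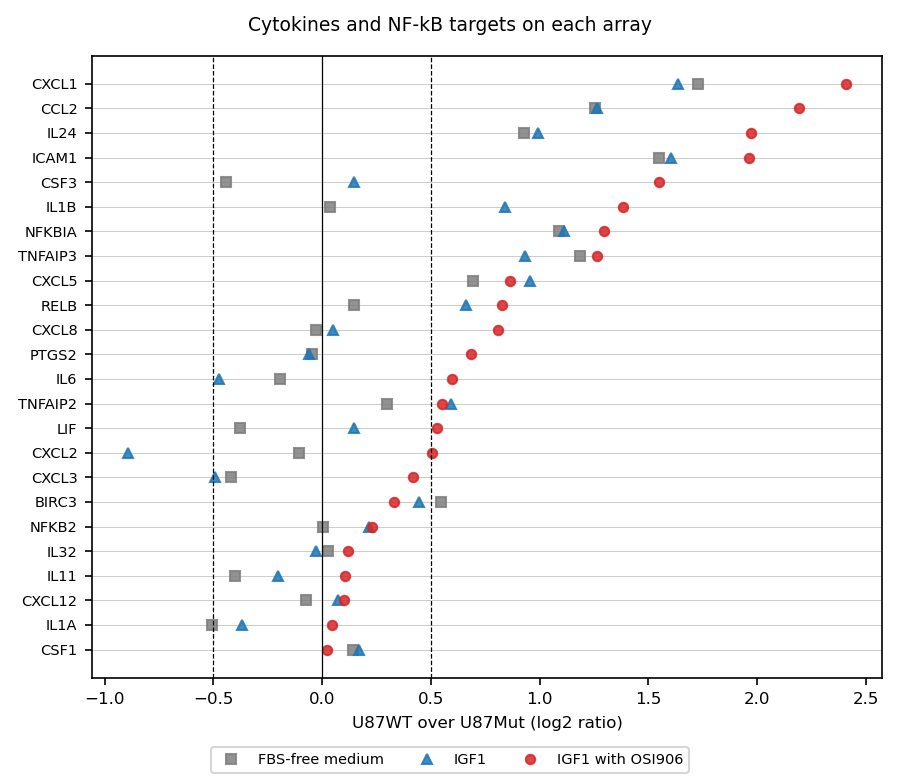
Log2 ratio of U87WT over U87Mut (horizontal axis) for the 24 measured cytokines and NF-kB targets, with 1 point per array: FBS-free medium (squares), IGF1 (triangles) and IGF1 with OSI906 (circles). Dashed lines stand at 0.5 and -0.5. With OSI906, CSF3 is at 1.55 and IL6 at 0.60, to the right of both other arrays, whereas for NFKBIA the 3 points lie between 1.09 and 1.30.

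Genes of LXR and cholesterol efflux were higher in U87WT. LXR is a nuclear receptor for oxysterols that raises cholesterol efflux. Of 12 listed genes 7 were measured and 6 were above 0.5 (median 0.84). The targets alone had 5 of 6 above 0.5 (median 0.80), and of 4 listed oxysterol genes only 1, CH25H, was measured. APOE, which carries exported cholesterol, gave a brightness over background of 2128 in U87WT and 221 in U87Mut, a log2 ratio of 2.92, beside 2.74 without serum and 1.95 after IGF1. The enzyme CH25H, which makes 25-hydroxycholesterol, was at 1.68, the receptor NR1H3 at 0.96 and the cholesterol pump ABCA1 at 0.84. Fatty acid synthesis genes were above 0.5 in 4 of 15 and below -0.5 in 1, with the synthase FASN at 0.86, the desaturases FADS1 and SCD at 0.85 and 0.75, and the elongase ELOVL7 at -0.68. Cholesterol synthesis and uptake genes had 3 of 23 above 0.5 and 1 below -0.5, with a median of 0.00. Over all genes the shares were 5.47% above 0.5 and 5.29% below -0.5. So 6 of the 7 measured LXR and efflux genes passed 0.5, the remaining one, PLTP, being at 0.49, while the list of sterol genes was centered near 0.

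Antioxidant enzymes were split. All of the superoxide dismutases were higher in U87WT: the mitochondrial SOD2 at 1.70, the extracellular SOD3 at 1.01 and the cytosolic SOD1 at 0.61. Glutathione peroxidase GPX1 was at 1.14 and catalase (CAT) at 0.98, but the mitochondrial peroxiredoxin PRDX3 was at -0.84, and the 11 measured peroxidases had a median of 0.01. Of 9 thiol enzymes and NRF2 targets 6 were below -0.5 and 0 above 0.5, with the sulfiredoxin SRXN1 at -1.34, the thioredoxin reductase TXNRD1 at -0.92 and the quinone reductase NQO1 at -0.69. The whole list had 5 higher and 7 lower genes of 23, beside 5.47% and 5.29% of all genes, and a median of -0.03. Its median was 0.22 when centered on the median in place of loess.

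Energy metabolism lists lay near 0 after loess, with medians of 0.01 for glycolysis, 0.04 for respiratory complex I, 0.08 for complexes III to V and -0.06 for the TCA cycle. Centered on the median in place of loess, these were 0.18, 0.25, 0.39 and 0.01. Glycolysis had 1 of 34 genes above 0.5, PFKFB2, a regulator of phosphofructokinase, at 0.57, and 0 below -0.5. The other probe of PFKFB2 was at 0.02. Respiratory complex I had 2 of 36 above 0.5 and 0 below -0.5, where 5.47% and 5.29% of all genes were. TCA cycle genes had 1 higher and 4 lower of 23, with malic enzyme ME2 at -0.90 and isocitrate dehydrogenases IDH1 and IDH3A at -0.74 and -0.67. Of 42 genes that the study names, a list that was in part chosen on these samples and is no independent evidence of a direction, 40 were measured, 11 were above 0.5 and 4 below -0.5. Among them were CH25H, SOD2 and PLPP2, a phosphatase of lipid phosphates, at -1.16, while GAPDH was at 0.09, LDHA at -0.40 and LPIN1 at 0.44. The other probe of LDHA was at -0.81, below the limit, and the other probes of LPIN1 reached down to 0.08.

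Matrix and adhesion genes were among the highest. DCN, which encodes the small proteoglycan decorin, was the highest gene of the array, with a brightness over background of 1656 in U87WT and 123 in U87Mut, a log2 ratio of 3.22 and a fold of 9.31. Its other probe gave 1.46, and on the other arrays it was at 2.63 and 1.94. LUM, a related proteoglycan, was at 1.53, EFEMP1, a glycoprotein of elastic fibers, at 1.41 and the laminin chain LAMA4 at 1.04. Of 29 matrix glycoproteins and proteoglycans 9 were above 0.5 and 1 below -0.5, tenascin TNC at -1.03. Of 21 matrix proteases and inhibitors 8 were higher, among them the gelatinase MMP2 at 0.94, and 1 was lower. Beside 5.47% of all genes, collagens were above 0.5 in 4 of 27 and below -0.5 in 0. Integrins and adhesion molecules were higher in 4 of 20, led by ITGA7, a laminin receptor, at 1.33, and lower in 1, ALCAM at -0.72. Lysosomal genes were higher in 6 of 33, led by progranulin (GRN) at 1.98, and lower in 1, the protease CTSL at -0.76. GRN is also among the very bright genes whose median is above 0. RSPO3, which enhances Wnt signals, was at 1.92.

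Other genes at the ends of the range were DMKN and SBSN, neighbors on chromosome 19 that encode secreted proteins of epidermis, at 2.72 and 2.70. The other probes of DMKN reached down to 0.87. MAGEC2, a cancer-testis antigen, was at 2.58, TMEM119, known as a marker of microglia and of bone cells, at 2.01, CD24 at 1.93 and the integrin chain ITGAX at 1.88. C11orf96 was at 2.38. At the other end BEX2, a gene of the X chromosome expressed in brain, gave a brightness over background of 816 in U87WT and 5296 in U87Mut, a log2 ratio of -2.77. The keratin KRT80 was at -1.81, RMI2, a subunit of the complex that dissolves recombination intermediates, at -1.68, the centromere protein CENPU at -1.53 and PLEKHH1 at -1.49. LOC100129931, an unnamed locus at -1.64 with its other probe at -0.07, is left out of the plot of the highest and lowest genes.

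**Figure D4:**
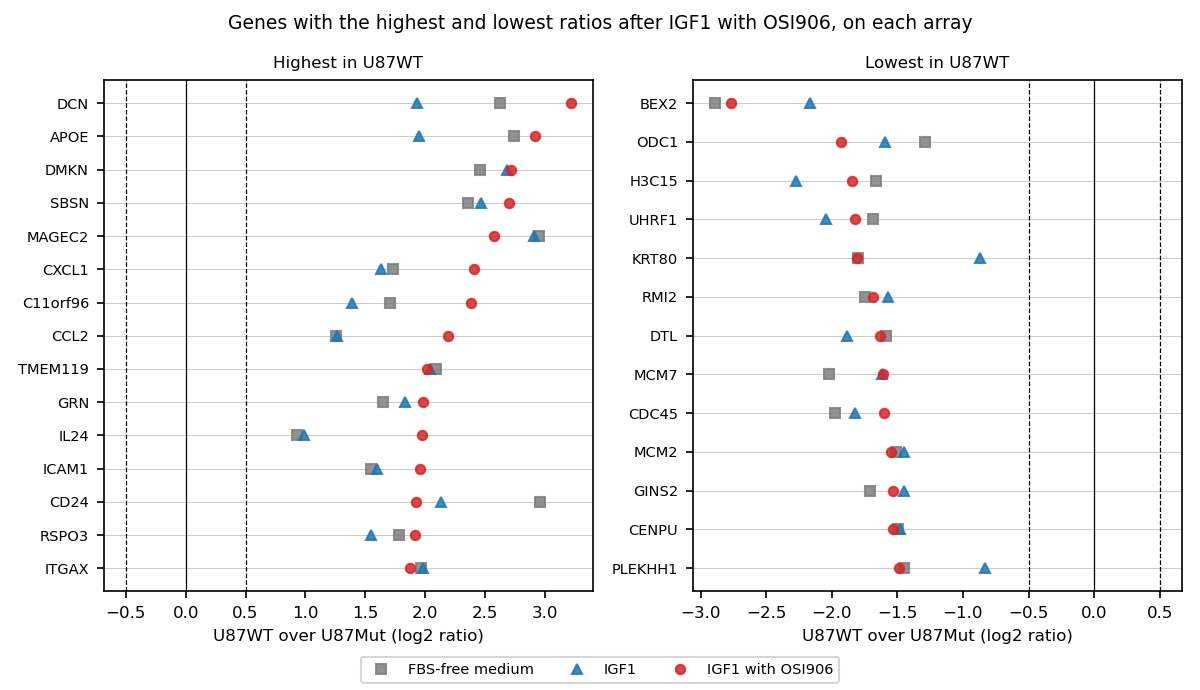
Log2 ratio of U87WT over U87Mut (horizontal axis) for the genes with the 15 highest ratios and most of those with the lowest ratios after IGF1 with OSI906, with 1 point per array: FBS-free medium (squares), IGF1 (triangles) and IGF1 with OSI906 (circles). Dashed lines stand at 0.5 and -0.5. All of these genes keep their side of 0 on every array, and CCL2 at 2.19 and IL24 at 1.97 lie apart from their other points.

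Immune recognition and translation genes were higher in part. Of 40 interferon-stimulated and antigen presentation genes 10 were above 0.5 and 1 below -0.5 (median 0.23), with MX2, an antiviral GTPase, at 1.20 and IFI44L at -0.69. Of all genes 5.47% were above 0.5 and 5.29% below -0.5. Cytosolic ribosomal proteins were above 0.5 in 15 of 77 and below -0.5 in 0, with a median of 0.26, but their median was 0.02 in the ratios of the scanner software and 0.71 when centered on the median. They are among the brightest genes, with a median brightness of 15.3 on the log2 scale, in the range where all genes had a median of 0.40. Mitochondrial ribosomal proteins had a median of -0.14, with 2 higher and 5 lower of 76.

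The receptor and its own system were near 0. IGF1R, by its 1 probe, gave a brightness over background of 303 in U87WT and 269 in U87Mut, a log2 ratio of 0.09, and it was at 0.07 and 0.23 on the arrays of FBS-free medium and IGF1. Where on the transcript that probe lies was not known, so that it does not check the transgenes. The insulin receptor (INSR) was at -0.04 and the adaptors IRS1 and IRS2 at -0.05 and -0.23. IGFBP7, a secreted protein that binds IGF1 and insulin, was the 1 of 16 measured genes of the IGF and insulin system above 0.5, at 0.70, and 0 were below -0.5. The SUMO and nuclear import list had 0 of 25 genes above 0.5 and 3 below -0.5, which were SAE1 and UBA2, the subunits of the SUMO activating enzyme, at -0.64 and -0.55, and the SUMO protease SENP1 at -0.54. FOXO-induced genes, which are repressed through AKT, had 3 higher and 1 lower of 20, and ERK pathway genes had 2 higher and 2 lower of 17. Over all genes 5.47% were above 0.5 and 5.29% below -0.5. The TGF-beta and HOX lists had 0 genes past 0.5 on either side, of 23 and 24 measured.

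**Figure D5:**
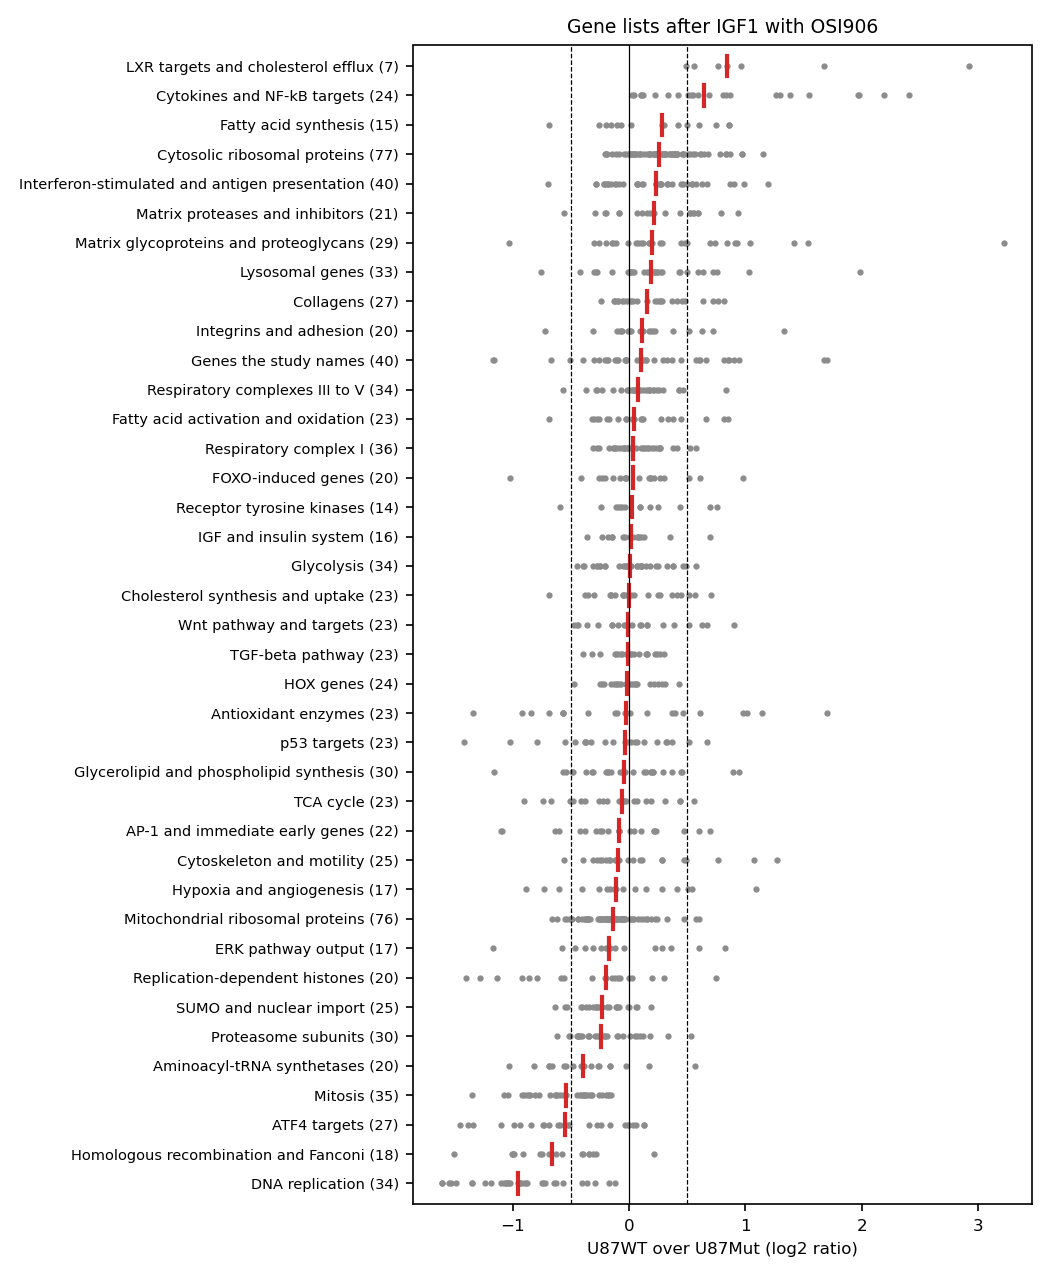
Log2 ratio of U87WT over U87Mut (horizontal axis) after IGF1 with OSI906 for the measured genes of each gene list, with the number of genes after its name. Gray points are genes, red bars are medians and dashed lines stand at 0.5 and -0.5. Medians run from -0.95 for DNA replication to 0.84 for LXR targets and cholesterol efflux, and the medians lie between -0.24 and 0.28 except for those of 2 lists above and 5 below.

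Markers of cell types were read beside these lists. GFAP, the defining filament of astrocytes, and SOX2, a factor of neural stem cells, were not well above background in either channel, with a brightness over background of at most 4 and 8. Of 7 neural stem or progenitor markers, SOX2 among them, 3 were well above background in both channels and 0 passed 0.5 on either side. The brightest was NES, with 105 in U87WT and 62 in U87Mut, at 0.39. Vimentin (VIM) and CD44, which mark mesenchymal cells, gave 78232 and 22846 in U87WT, with log2 ratios of 0.77 and 0.17, VIM among the very bright genes, and 9 of 9 mesenchymal markers were measured, 4 above 0.5 and 2 below -0.5. Of 6 fibroblast markers 4 were measured and all were above 0.5, namely DCN, LUM, COL1A1 (0.77) and PDGFRB (0.75), whereas COL3A1 and THY1 were not well above background in 1 or both channels. The leukocyte markers PTPRC and CD14 gave at most 28 and 33.5, and CD3E was not well above background, although CD79A, a marker of B cells, gave 865 in U87WT and a log2 ratio of 0.48. Of 4 measured neuronal markers 1 passed 0.5, SNAP25 at 0.91, and the brightest, TUBB3, was at -0.05. Of 4 measured astrocyte markers 1 passed, the glutamate transporter SLC1A3 at 1.25, whose other probe gave 0.23. Endothelial markers reached at most 21.5. The markers of fibroblasts and the matrix genes lay on the same side, share DCN and LUM, and their part in the matrix result was not tested.

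The clones differed in much the same genes on the other arrays, which hold the same clones and dyes. Of 882 higher genes measured on all arrays, 590 (66.9%) were also above 0.5 in FBS-free medium and 598 (67.8%) after IGF1, where 6.34% and 7.31% of all 15335 such genes were. Of 867 lower genes, 531 (61.2%) were below -0.5 in FBS-free medium and 423 (48.8%) after IGF1, beside 6.14% and 4.72% of all. On both other arrays 473 and 368 genes passed, and 167 higher and 281 lower genes passed on neither. Across these genes, which are not independent replicates, the ratios had a Pearson correlation of 0.811 with FBS-free medium and of 0.710 with IGF1. A bias of a gene to one dye would be shared by every array, and its part in these figures was not tested.

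Of the 15335 genes measured on every array, 168 were over 0.5 above the mean of the other arrays and 196 over 0.5 below it, and the 5 farthest each way are given here. On the higher side they were CSF3, TFPI2, an inhibitor of serine proteases (0.70 against -0.84 in FBS-free medium and -0.49 after IGF1), VEGFA, the growth factor of vessels (-0.05 against -1.13 and -1.36), the small nucleolar RNA SNORA16A (0.84 against 0.05 and -0.64) and the non-coding RNA LUCAT1 (0.07 against -0.98 and -1.08). By these probes VEGFA and LUCAT1 were below -0.5 on the other arrays and near 0 with OSI906, where the other probe of VEGFA was at -0.59 and that of LUCAT1 at 0.45. In brightness over background VEGFA gave 4966 in U87WT and 4377 in U87Mut, against 2001 and 4474 in FBS-free medium. On the lower side they were KCNJ2, a potassium channel (0.44 against 0.95 and 2.74), LINC02008 (-0.19 against -0.07 and 1.78), TOP2A, the topoisomerase of dividing cells (-1.04 against -0.80 and 0.74), LANCL1 (-0.68 against -0.09 and 0.58) and SNORA65 (-0.16 against 1.32 and 0.19). The spots of KCNJ2, LINC02008 and TOP2A on the IGF1 array lay in a local Cy5 background of 189, 745 and 935, against 21 to 24 on the other arrays. Among the 15080 genes whose local Cy5 background was at most 45 on every array, a limit chosen after seeing the data, the places of these genes were taken by ENPP2 (-0.49 against 0.51 and 0.25), PTPN9 (-0.45 against 0.96 and -0.20) and PLS3 (-0.50 against 0.08 and 0.58), and the higher side was as given.

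Some genes were well above background in 1 clone and not in the other. These were 1698 genes in U87WT alone and 260 in U87Mut alone, and the probes that passed in Cy5 alone outnumbered those in Cy3 alone on every array, with 4800 against 810 here. These genes were dim and their bounds small, with 3 and 2 genes that differed by at least 1.5-fold. DDIT4L, an inhibitor of mTORC1, was at least 1.70-fold higher in U87WT, with a brightness over background of 58.0 against 9 in U87Mut, which was not well above background, and ARHGAP20 was at least 1.63-fold and MBOAT1 at least 1.53-fold higher. MORC1 was at least 1.67-fold higher in U87Mut, with 43 against 7 and CHMP1B2P passed 1.5-fold. IGFBP1, a binding protein of the IGF system, was at least 1.33-fold higher in U87Mut, with 18 against 1. The bright channel was set against the higher of the lowest signal well above background and the signal of the dim channel, on the log2 scale with the offset.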

How the data were processed

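RNA of U87WT (Cy5) and U87Mut (Cy3) was compared on 1 two-color Agilent array per condition. The authors deposited intensity values straight from the scanner software (Feature Extraction 12.0.3.1, per the file headers), of which the median signal of a spot and its local background were used. Per the file headers, the same software gave a log10 ratio from its own corrected signals, converted to log2 for 1 alternative. The authors also deposited log2 ratios per probe, made with limma, which served as an alternative.

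Background was corrected with normexp in limma 3.58.1 (offset 50, fitted without spots marked not uniform), ratios were normalized by loess within the array, 95 outlier spots were left out, and spots of a probe were averaged. The offset understates the ratios of dim genes. A probe was kept when more than 0.5 of its spots were well above background in each channel. Genes were named by RefSeq transcript (GRCh38.p14) for 34890 of 36768 probes with such an accession, and each took its brightest probe. The named genes are the 15 highest and 15 lowest, the 5 each way farthest from the other arrays, up to 8 each way above background in 1 clone, up to 4 called members each way of each list, and the genes the study names, while other members, markers and controls were named after their values were seen. Some genes that this rule names are not reported here. Members and lists were chosen with earlier results of these data known. Precision is limited by the number of arrays, 1 in each condition, so no test was possible and no p is given. The steps were tested on simulated data. Columns of other series numbered 0.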

Additional observations from a re-analysis of the deposited data

Results flagged for a closer look

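The genes given here come from the 5 each way farthest from the mean of the other arrays. They passed 0.5 after IGF1 with OSI906 and passed it on the opposite side on another array. In each case the difference was not tested. TOP2A was at -1.04 with OSI906 and at 0.74 after IGF1, where its spot lay in a local Cy5 background of 935. LANCL1 was at -0.68 with OSI906 and at 0.58 after IGF1, in an even background. TFPI2 was at 0.70 with OSI906 and at -0.84 in FBS-free medium. SNORA16A was at 0.84 with OSI906 and at -0.64 after IGF1. Of the genes measured on all arrays, 9 of 882 higher and 4 of 867 lower genes passed 0.5 on the opposite side of another array.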

How the results depend on the processing

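The number of probes higher and lower in U87WT (1294 and 1162) was 3061 and 3093 with a normexp offset of 0, 3575 and 3653 with plain subtraction of the background, and 3496 and 3976 with the ratios of the scanner software, all of which leave dim probes undamped. Centering on the median in place of loess gave 1969 higher probes. A limit of 1 left 177 and 104, a limit of 0.5 SD of the array, which is 0.11, gave 8403 and 8772, and genes by the mean of their probes numbered 710 and 750. The fit on all spots, an offset of 20, no background correction, the deposited table, all non-control probes, probes above background on all 3 arrays and genes by the brightest probe kept both counts within 1.5 times. Of 175 named genes past 0.5, 0 changed sign under any of the 11 alternatives run on them, and between 158 and 175 stayed past 0.5. The fit on all spots, all non-control probes and probes above background on all 3 arrays moved 0 named genes by more than the spread between spots. These alternatives leave the value of a gene nearly as it was, so that they say little about how firm it is. The 6 list medians past 0.5 kept their sign, and all 6 stayed past 0.5 except that ATF4 targets (-0.30) and mitosis (-0.39) did not when centered on the median, nor mitosis (-0.46) with the mean of the probes. Centering on the median moved 29 of 40 list medians and 110 of 205 named genes by more than the spread between spots. No paired analysis was possible because there is 1 array per condition. Depth is limited by signal over background: 47.5% of the probes kept were dimmer than 7 on the log2 scale, where the offset pulls ratios toward 0.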
